A study of Mus musculus with 2 samples.

Results

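The miR-181 family comprises 6 hairpin genes in the mouse, Mir181a-1, Mir181b-1, Mir181a-2, Mir181b-2, Mir181c and Mir181d, and their levels were described in the heart of aged mice. The genes were taken by symbol from the 2202 microRNA genes counted, with earlier results of these data known. Small RNA was sequenced from heart tissue of female B6CASTF1/J mice, the first-generation hybrid of C57BL/6J and CAST/EiJ, aged 18 to 20 months, for which the labels name no treatment. There was 1 group of 2 libraries, numbered by the labels as biological replicates 1 and 2, with a tissue record each but a shared donor record. Spread between them may therefore be technical, and with 1 group there was no contrast between conditions. Replicate 1 gave 3383676 counts on the sense strand of microRNA genes and replicate 2 gave 3676084. Levels are counts per 1000000 of these (CPM), with mean ± SD over n = 2 libraries. They were not divided by length, because a small RNA read covers a whole mature sequence. Of the microRNAs known from heart muscle, those of cardiac myosin introns were present in replicates 1 and 2: Mir499 at 3977 and 3567 CPM, Mir208a at 1588 and 1247, and Mir208b at 59.1 and 17.1. The miR-1 and miR-133a loci were low, with 278 and 227 counts for Mir1a-2, 20 and 8 for Mir1a-1, and neither Mir133a locus at 10 counts in both libraries. Each of these forms is encoded at 2 loci, so reads that fit both are missing from those counts.

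A microRNA hairpin is cut into a duplex, of which an arm is loaded into an Argonaute protein. Bases 2 to 8 of that arm, the seed, pair with target messenger RNAs. The 5p arms of the miR-181 family are the usual guide strands. The family is known from thymocyte and B cell development, where miR-181a tunes T cell receptor signalling. In blood vessels miR-181b is known to restrain NF-kappaB signalling in endothelial cells, and in heart muscle miR-181c has been found in mitochondria.

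The 5p arms are shown first because they carry the family's common seed and because they decide which reads can be given to a locus. Sequences are from RefSeq (GRCm38.p6), 5′ to 3′, with the seed in capitals.
miR-181a-5p: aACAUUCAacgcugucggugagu
miR-181b-5p: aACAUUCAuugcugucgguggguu
miR-181c-5p: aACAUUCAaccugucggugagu
miR-181d-5p: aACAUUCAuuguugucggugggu
All 4 forms have the seed ACAUUCA, and no other mature mouse microRNA in the RefSeq table had it. Counted from 1 at the 5′ end, miR-181a-5p and miR-181b-5p differ by A9U, C10U and A21G over 23 positions. Over the same 23 positions miR-181b-5p and miR-181d-5p differ by C12U, and miR-181b-5p, of 24 nt, is 1 base longer. Removal of the base at position 11 of miR-181a-5p gives miR-181c-5p. The first form is encoded whole by Mir181a-1 and Mir181a-2, and the second by Mir181b-1 and Mir181b-2. The forms of Mir181c and Mir181d were each found in 1 annotated hairpin.

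The 3p arms, the usual passenger strands, are shown because they separate the loci that share a 5p arm.
miR-181a-1-3p: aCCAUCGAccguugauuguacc
miR-181a-2-3p: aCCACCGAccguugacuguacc
miR-181c-3p: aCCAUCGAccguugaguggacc
miR-181b-1-3p: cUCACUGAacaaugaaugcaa
miR-181b-2-3p: cUCACUGAucaaugaaugcaaa
miR-181d-3p: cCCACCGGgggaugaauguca
The 3p arms fall into 4 seed groups, CCAUCGA (a-1 and c), CCACCGA (a-2), UCACUGA (b-1 and b-2) and CCACCGG (d). Those of Mir181a-1 and Mir181a-2 differ by U5C and U16C. Those of Mir181b-1 and Mir181b-2 differ by A9U over 21 positions, and each of the 6 was found in 1 annotated hairpin.

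The hairpins of the loci that share a 5p arm show how far the shared part reaches. Capitals mark the longest stretch that recurs in another annotated microRNA hairpin.
Mir181a-1: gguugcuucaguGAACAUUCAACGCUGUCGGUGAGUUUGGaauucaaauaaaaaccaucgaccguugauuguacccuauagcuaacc
Mir181a-2: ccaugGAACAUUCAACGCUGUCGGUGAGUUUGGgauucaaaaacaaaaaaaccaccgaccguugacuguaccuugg
Mir181b-1: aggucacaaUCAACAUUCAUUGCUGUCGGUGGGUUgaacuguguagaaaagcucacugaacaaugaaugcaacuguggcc
Mir181b-2: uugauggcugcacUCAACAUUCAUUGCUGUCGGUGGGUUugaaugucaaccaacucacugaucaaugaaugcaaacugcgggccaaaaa
The pair of a genes shares 28 nt, which covers the whole 5p arm and the 4 bases after it. The pair of b genes shares 26 nt and parts at the first base after the 5p arm, which is G in Mir181b-1 and U in Mir181b-2. The longest stretch that Mir181c shares with another hairpin is 17 nt, and that of Mir181d is 13 nt. Reads that map to more than 1 place entered no gene count, and they took 43.9% of all reads in replicate 1 and 43.2% in replicate 2. A read of miR-181a-5p or miR-181b-5p up to the shared length fits both of its loci. The counts of the 4 a and b genes are thus uncertain as a measure of their 5p arms, and the files do not separate the arms. A stretch of 20 nt or more was shared by 4 of the 6 genes, and by 88 of the 316 microRNA genes (27.8%) that reached 10 sense counts in each library, called detected below.

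The genes lie in 3 clusters (mm10 coordinates). Mir181a-1 (chr1:137966455-137966541) and Mir181b-1 (chr1:137966639-137966718), both on the plus strand, are 97 bp apart within an intron of Gm4258. The whole of Mir181b-1 and the last 11 bp of Mir181a-1 overlap an exon of the long noncoding RNA A430106G13Rik on the same strand. Mir181a-2 (chr2:38852735-38852810) and Mir181b-2 (chr2:38853830-38853918), on the plus strand, are 1019 bp apart and face an intron of the nuclear receptor gene Nr6a1 on the opposite strand. Mir181b-2 also lies opposite an exon of the unverified gene model Gm44144. Mir181c (chr8:84178873-84178961) and Mir181d (chr8:84178716-84178787) are 85 bp apart on the minus strand, in an intron of Nanos3 on the same strand. None of the 6 had antisense counts in either library, and 0 counts allow up to 0.887 and 0.816 CPM in replicates 1 and 2.

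All 6 members were detected, against 14.4% of the annotated microRNA genes. By reads placed at a single locus, Mir181b-2 and Mir181d were the highest and Mir181b-1 the lowest. The 6 genes held 5640 counts in replicate 1, which is 0.167% of the sense gene counts, with a Wilson 95% interval from 0.162 to 0.171. In replicate 2 they held 7262 counts, which is 0.198% (0.193 to 0.202). Their mean share was 0.182% ± 0.0218. Such intervals and floors hold for counting error alone, because without molecular identifiers PCR copies of 1 molecule are counted as several reads.

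Mir181b-2 had 2570 counts in replicate 1 (760 CPM) and 3224 in replicate 2 (877 CPM), a mean of 818 ± 83.1 CPM. It ranked 71 among the 316 detected genes by mean level. Mir181d had 1776 counts (525 CPM) and 2788 counts (758 CPM), a mean of 642 ± 165 CPM at rank 78. The libraries of these genes did not overlap, although the lower value of Mir181b-2 and the higher value of Mir181d nearly met. The ratio of Mir181b-2 to Mir181d was 1.45 in replicate 1 (exact 95% interval 1.36 to 1.54) but 1.16 in replicate 2 (1.10 to 1.22). Between them they held 77.1% of the family's counts in replicate 1 and 82.8% in replicate 2.

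Mir181c, the gene of the form found in mitochondria, came next in both libraries, with 897 counts (265 CPM) and 862 counts (234 CPM). Its mean of 250 ± 21.6 CPM, at rank 97, lay below both libraries of Mir181d and above both of every a gene. The counts placed at the a genes, which encode the form known from T cells, were lower. Reads of that form that fit both a loci are missing from them, so they do not give its level. Mir181a-1 had 148 and 231 counts (43.7 and 62.8 CPM, mean 53.3 ± 13.5, rank 164), and Mir181a-2 had 227 and 127 counts (67.1 and 34.5 CPM, mean 50.8 ± 23.0, rank 165). The a genes overlapped and changed places between the libraries, so their order is not resolved. Mir181b-1 had 22 and 30 counts (6.50 and 8.16 CPM), a mean of 7.33 ± 1.17 CPM at rank 276, below both libraries of every other member. The median mean level was 152 CPM over the 6 genes and 62.2 CPM over all detected genes.

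**Figure D1:**
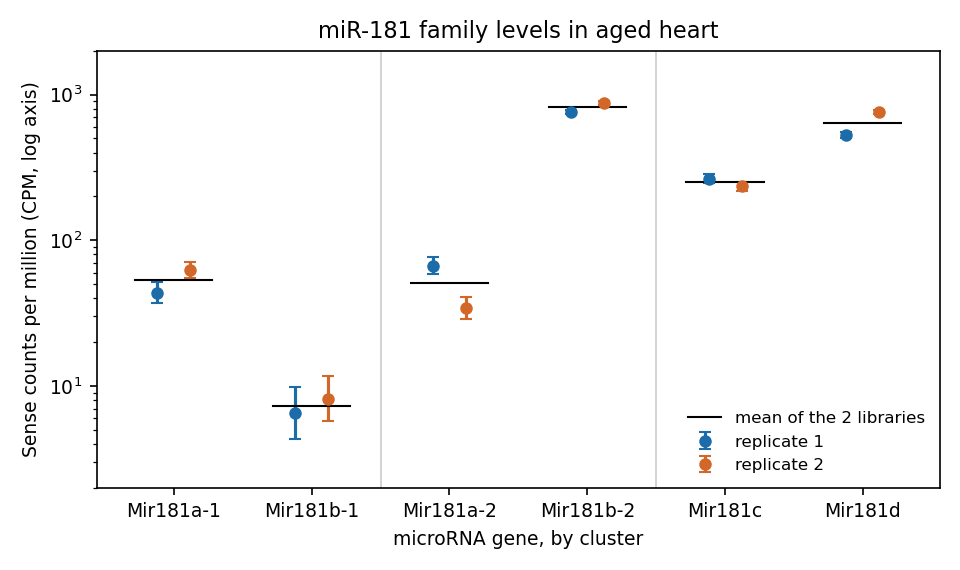
Sense CPM (log axis) of the 6 miR-181 genes, grouped by cluster, in replicate 1 (blue) and replicate 2 (orange), with Wilson 95% intervals and a bar at the mean. Mir181b-2 stands at 760 and 877 CPM and its cluster partner Mir181a-2 at 67.1 and 34.5, while Mir181b-1 stands at 6.50 and 8.16 beside Mir181a-1 at 43.7 and 62.8.

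The counts placed at the a-2/b-2 and c/d clusters were nearly equal. The former took 49.6% of the family's counts in replicate 1 and 46.1% in replicate 2, at 869 ± 60.1 CPM. The c/d cluster took 47.4% and 50.3%, at 891 ± 144 CPM. The order of these clusters differed between the libraries. The a-1/b-1 cluster took 3.01% and 3.59%, at 60.6 ± 14.7 CPM. Reads that fit both a-1/b-1 and a-2/b-2 are missing from the totals of those clusters. The c/d genes share at most 17 nt with another annotated hairpin, so the totals cover unlike parts of the clusters.

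The balance within a cluster ran in opposite directions at the loci that encode the same pair of 5p arms. In the a-1/b-1 cluster the a gene led: the ratio of Mir181a-1 to Mir181b-1 was 6.73 in replicate 1 (exact 95% interval 4.28 to 11.1) and 7.70 in replicate 2 (5.25 to 11.7). In the a-2/b-2 cluster the b gene led: Mir181a-2 was 0.0883 times Mir181b-2 (0.0768 to 0.101) and 0.0394 times (0.0327 to 0.0470). The intervals of the clusters lie far apart in both libraries. Since these counts leave out reads that fit both loci, the ratios compare what could be placed at each locus. From the start of the 5p arm the shared part runs 27 nt in the a genes and 24 nt in the b genes. The ratios of a to b genes therefore set unlike parts of the hairpins beside each other. Mir181c and Mir181d share at most 17 and 13 nt with another annotated microRNA hairpin. Mir181c was 0.505 times Mir181d (0.466 to 0.548) in replicate 1 and 0.309 times (0.286 to 0.334) in replicate 2.

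Across clusters, the ratio of Mir181b-2 to Mir181b-1 was 117 in replicate 1 (exact 95% interval 77.0 to 187) and 107 in replicate 2 (75.1 to 160), with 22 and 30 counts in the denominator. Mir181a-2 was 1.53 times Mir181a-1 in replicate 1 (1.24 to 1.90) and 0.550 times in replicate 2 (0.439 to 0.686). The intervals of the first ratio overlap between the libraries, and those of the second lie on either side of 1.

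**Figure D2:**
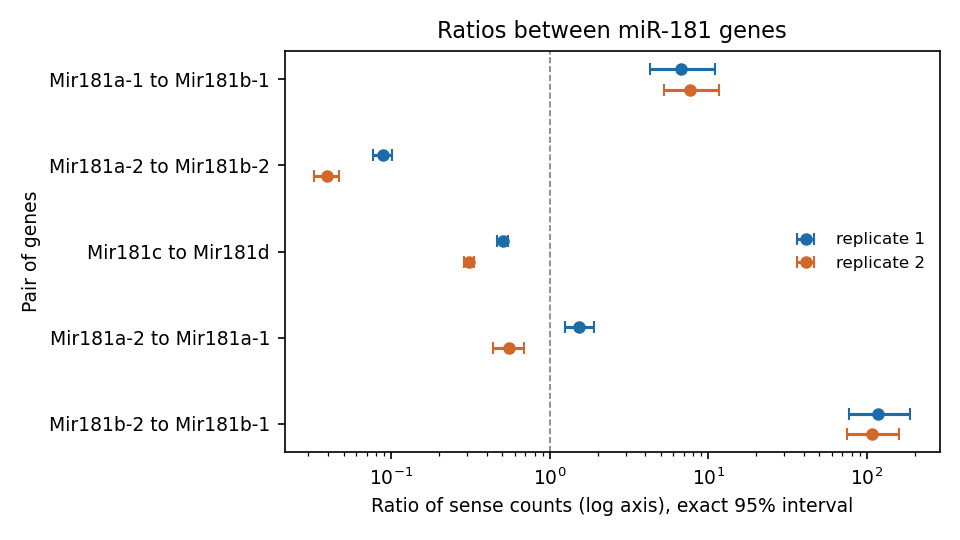
Ratios of sense counts between pairs of miR-181 genes (log axis) in replicate 1 (blue) and replicate 2 (orange), with exact 95% intervals and a dashed line at 1. Mir181a-1 to Mir181b-1 (6.73 and 7.70) and Mir181b-2 to Mir181b-1 (117 and 107) have overlapping intervals, whereas Mir181a-2 to Mir181a-1 falls on either side of 1 (1.53 and 0.550).

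Of these 5 ratios, 3 differed between the libraries. Mir181a-2 to Mir181b-2 differed 2.24-fold (Fisher's exact test, two-sided, Benjamini-Hochberg over 5 ratios, adjusted p = 1.26e-12), Mir181a-2 to Mir181a-1 differed 2.79-fold (Fisher's exact test, adjusted p = 2.27e-11) and Mir181c to Mir181d differed 1.63-fold (Fisher's exact test, adjusted p = 2e-17). Each was higher in replicate 1. For Mir181a-1 to Mir181b-1 and Mir181b-2 to Mir181b-1 no difference was detectable at this depth (1.14-fold and 1.09-fold, Fisher's exact test, adjusted p = 0.782 for each). The tests set these 2 libraries against counting noise, so a difference between preparations of 1 tissue would pass as well.

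Between the libraries, 5 of the 6 members were called, 3 higher in replicate 2 and 2 higher in replicate 1, by a two-sided exact binomial test with TMM scaling and Benjamini-Hochberg adjustment across the 316 detected genes. Of the detected genes 60.4% were called, 33.2% higher in replicate 2 and 27.2% higher in replicate 1, and the family's count was read against that background. The split depends on the scaling: 105 genes were higher in replicate 2 and 86 in replicate 1 with TMM, 128 and 70 with library totals, and 93 and 94 with DESeq2 size factors. The share called rose with the minimum count. With no minimum count, 28.4% of 708 genes were called. At a minimum of 100 counts in each library, 72.9% of the genes tested were called, as were 4 of the 5 members tested. Mir181a-2 was lower in replicate 2, with a log2 ratio of replicate 2 over replicate 1 of -1.08 (exact binomial test, adjusted p = 1.54e-11). It was the only member called at 2-fold or more, as were 21.2% of the detected genes, but with library totals its log2 ratio was -0.96, under 2-fold. Mir181c was lower there too, with a log2 ratio of -0.30 (exact binomial test, adjusted p = 3.11e-05). Mir181d was higher in replicate 2, with a log2 ratio of 0.41 (exact binomial test, adjusted p = 2.68e-20), and so was Mir181a-1, with 0.40 (exact binomial test, adjusted p = 0.0156). Mir181b-2 had a log2 ratio of 0.08 (exact binomial test, adjusted p = 0.0474). It was not called with DESeq2 size factors (adjusted p = 0.553), at a minimum of 100 counts (adjusted p = 0.337) or with reads on either strand (adjusted p = 0.0558), and over all 5 alternatives its adjusted p ran from 1.26e-07 to 0.553. Mir181b-1, with the fewest counts, had a log2 ratio of 0.20 (exact binomial test, adjusted p = 0.754).

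The median log2 ratio was 0.14 over the family and 0.05 over all detected genes, and the median absolute log2 ratio was 0.35 over the family and 0.45 over all. Scaling by library totals moved the median of all genes to 0.18. Each scaling shifts every log2 ratio by the same amount, so a member's distance from the median of all genes is fixed by construction. With TMM, library totals or DESeq2 size factors, Mir181a-2 lay 1.14 below that median and Mir181c 0.36 below. Mir181d lay 0.35 above it, Mir181a-1 0.34 above, Mir181b-1 0.15 above and Mir181b-2 0.03 above.

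**Figure D3:**
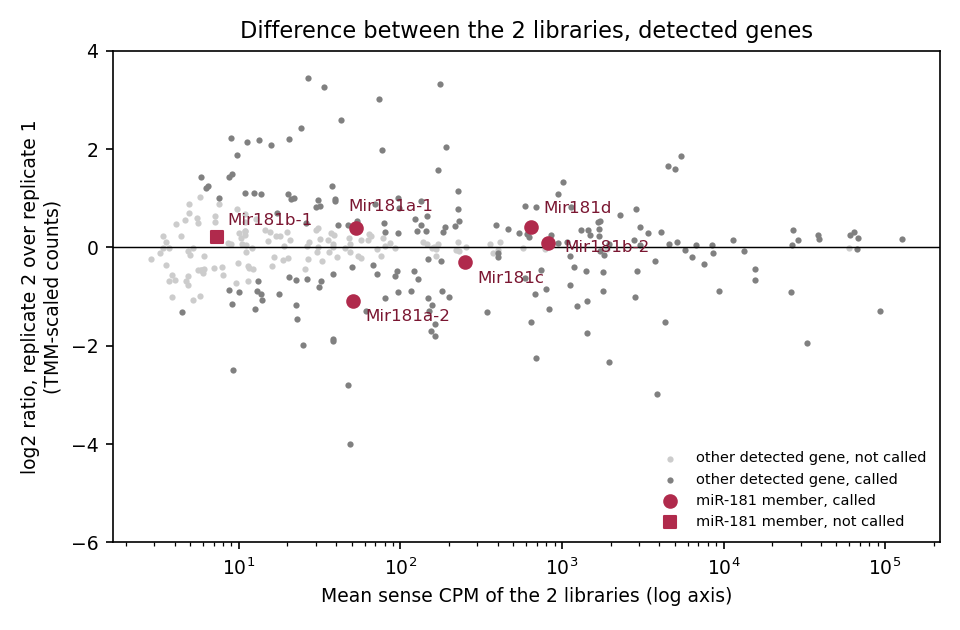
Log2 ratio of TMM-scaled counts, replicate 2 over replicate 1, against mean sense CPM (log axis) for the 316 detected genes, with miR-181 genes in red (circles called, square not called) and other genes in grey. The members lie between -1.08 (Mir181a-2) and 0.41 (Mir181d), within the spread of the other genes.

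Markers of other cell types also differed between the libraries. All 5 detected white blood cell microRNAs of 6 listed (Mir150, Mir142, Mir223, Mir155 and Mir146) were higher in replicate 2 with TMM scaling. Their log2 ratios ran from 0.07 for Mir155 to 1.60 for Mir150, and Mir146b had 2 and 5 counts. The value of Mir155 lay close to the median of 0.05 over all detected genes. The list summed to 8645 CPM in replicate 1 and 16365 in replicate 2. The 3 erythroid genes of 3 (Mir451a, Mir144 and Mir486) were higher in replicate 1, summing to 4182 and 1938 CPM. The endothelial gene Mir126a stood at 129043 and 57714 CPM, while its listed partner Mir126b had 4 and 1 counts. The 3 cardiac muscle genes of 3 (Mir208a, Mir208b and Mir499) were higher in replicate 1, summing to 5624 and 4831 CPM. No listed marker was at 0. Mir181d and Mir181a-1 were thus higher in the same library as the white blood cell markers. So was Mir181b-2, though its call was lost under some alternatives. Mir181a-2 and Mir181c were higher in the same library as the erythroid, endothelial and cardiac muscle markers. With 2 libraries, every called gene sides with some of these markers. Of all detected genes, 33.2% were higher in replicate 2 and 27.2% in replicate 1. The part of cell composition in the members' differences was not tested. In whole tissue, fewer cells of a type and less RNA per cell cannot be told apart.

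The gap between Mir181b-1 and Mir181b-2 was set beside other pairs of loci that encode a common mature arm. Of 19 listed pairs, 18 were matched in the annotation and 11 had both loci detected. In all 11 the RefSeq table gives a shared mature sequence. The mean ratio of the higher to the lower locus had a median of 2.81 over the 11 pairs, from 1.29 for Mir29b-1 and Mir29b-2 to 14.1 for Mir92-1 and Mir92-2. The highest ratio in any library was 20.6 among these (Mir26a-1 and Mir26a-2, replicate 1), and 28.4 among the 15 pairs with counts at both loci (Mir1a-1 and Mir1a-2, replicate 2, with 8 counts at the lower locus). The ratio of Mir181b-2 to Mir181b-1, 112 ± 6.61, was above all of these. Reads that fit both loci of a pair are left out, so the ratios compare only what could be placed at each locus. How far the shared stretch reaches can also differ between pairs. After the 24 nt of miR-181b-5p the next base is U in Mir181b-2 and G in Mir181b-1. A read of that arm with 1 more U thus fits only Mir181b-2, whichever locus it came from. Whether such reads add to the counts of Mir181b-2 was not tested. Pairs with 0 counts at the lower locus have no ratio, such as Mir199a-2, with 21 and 22 counts against 0 at Mir199a-1. Mir181a-1 over Mir181a-2 gave 0.652 and 1.82, on either side of 1. The locus with more counts was the same in both libraries in 9 of the 11 pairs, and differed between the libraries in the Mir26a and Mir218 pairs, as it did in the Mir181a pair.

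**Figure D4:**
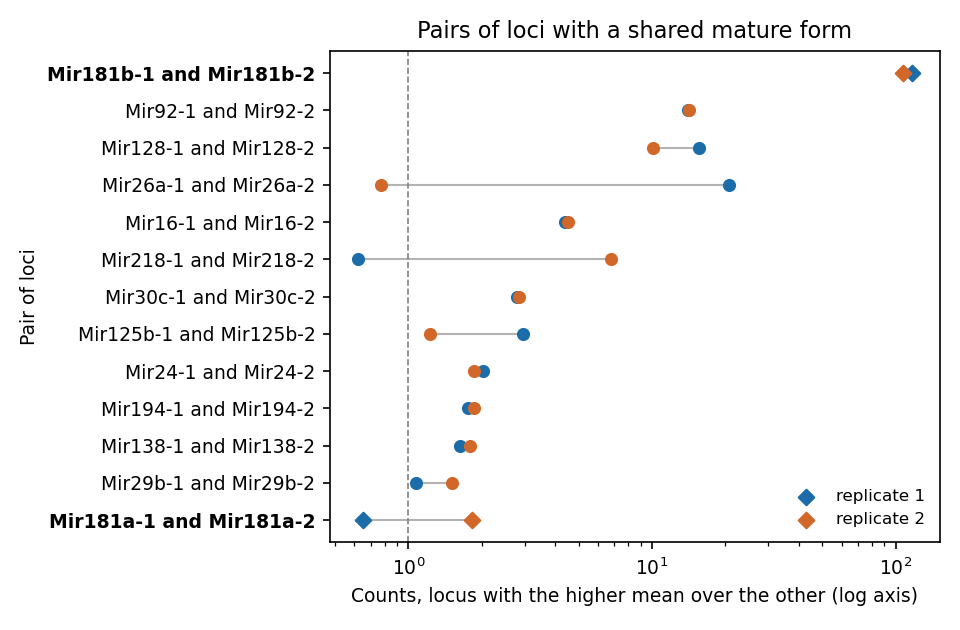
Counts at the locus with the higher mean level over counts at the other (log axis), for 11 pairs of loci with a shared mature arm (circles) and for the miR-181a and miR-181b pairs (diamonds, bold), in replicate 1 (blue) and replicate 2 (orange). The Mir181b pair lies at 117 and 107, the next pair by mean, Mir92-1 and Mir92-2, at 14.1 in each library.

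Cluster partners were also compared with neighbouring hairpins elsewhere, taken as 61 other pairs of adjacent detected genes on the same strand within 2000 bp. Such neighbours differed by a median of 0.62 in their log2 ratio between the libraries (quartiles 0.26 and 0.99). Mir181a-1 and Mir181b-1 differed by 0.19, less than 47 of the 61 pairs. Mir181c and Mir181d differed by 0.71, with 22 pairs above them, and Mir181a-2 and Mir181b-2 by 1.16, with 10 pairs above them. In level, neighbours differed by a median of 2.91 on the log2 scale (quartiles 1.51 and 4.22). Mir181c and Mir181d differed by 1.36, Mir181a-1 and Mir181b-1 by 2.86, and Mir181a-2 and Mir181b-2 by 4.01, with 16 pairs above the last. All 3 clusters thus fell within the range of the other neighbours on both measures.

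**Figure D5:**
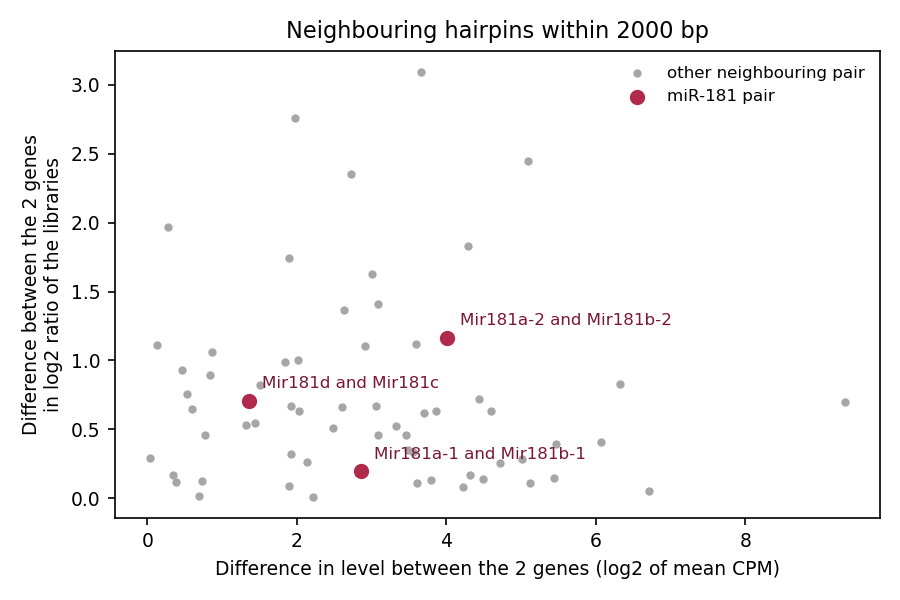
Each point is a pair of adjacent detected hairpins within 2000 bp on the same strand, with the difference between the pair in level (log2 of mean CPM) on the horizontal axis and in log2 ratio of the libraries on the vertical axis. The miR-181 pairs (red), at 0.19, 0.71 and 1.16 on the vertical axis, lie among the 61 other pairs (grey).

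The detected genes nearest to each member in level over the 2 libraries were found by the distance between their log2(CPM + 1) values. Nearest to Mir181b-2 were Mir20a (760 and 814 CPM, distance 0.11), of the miR-17-92 cluster, Mir324 (742 and 970 CPM, 0.15) and Mirlet7a-1 (870 and 1011 CPM, 0.28). Mir335 (493 and 732 CPM, distance 0.10) was nearest to Mir181d, and Mir547 (228 and 236 CPM, 0.22) to Mir181c. Mir337 (42.0 and 66.4 CPM, distance 0.10) was nearest to Mir181a-1, Mir26a-2 (85.4 and 37.8 CPM, 0.37) to Mir181a-2 and Mir3100 (5.62 and 8.70 CPM, 0.20) to Mir181b-1. With 2 libraries, the distance describes a like level in both and no more.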

How the data were processed

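Each library's deposited file holds raw counts for every microRNA gene, in a column for both strands together, a sense and an antisense column, as its values show in the absence of a header. Genes were those of GENCODE M21 on mm10, per the readme texts deposited beside the counts. Which aligner and counter the authors used, and how mismatches were handled, is not given in the sources used here. Reads were counted on the C57BL/6J reference, so CAST/EiJ variants could lower a count, which was not tested. The 4 rows that name no gene were left out of library sizes: unmapped, multimapping and featureless reads took 14.9%, 43.9% and 5.07% of the 9362013 reads of replicate 1, and 16.2%, 43.2% and 5.75% of the 10549508 of replicate 2, with 0 ambiguous reads on the sense strand.

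CPM used the sense totals. Detection required 10 sense counts in each library, and all 2202 identifiers matched GENCODE M21. Hairpins of that annotation were compared on both strands, overlapping loci included. The rest of the genome was not searched for shared stretches. RefSeq gave mature sequences of all 6 members. The hairpin of Mir181c is not printed. The libraries were compared per gene by exact binomial tests with TMM effective library sizes (edgeR 4.0.16), with DESeq2 1.42.0 size factors as an alternative, in R 4.3.3, Python 3.11.15, scipy 1.17.1, numpy 2.4.6, pandas 2.3.3 and matplotlib 3.10.9. Counts had 0.5 added before a log2 ratio only where a library had 0. The test was also run on simulated counts of the 316 genes with counting noise only, scaled by library totals. Calls were made for 90.0% of the 100 genes with a simulated 2-fold change, 96.0% of the 100 with a 4-fold change and 4.31% of the 116 left unchanged. Error in the TMM scaling was not part of that simulation.

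The named genes were the 6 members, the detected gene nearest to each (3 for the highest member), the marker lists and the list of locus pairs. Members, lists and tests were chosen with earlier results of these data known. The comparison with neighbouring hairpins and the denominator of all reads for single members were added after the data were seen.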

Additional observations from a re-analysis of the deposited data

How the results depend on the processing

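The family's share of 0.182% was 0.243% with reads on either strand and 0.0645% with all reads as the denominator, since only the denominator changes: each member has the same count in the sense and either-strand columns. The same denominators moved the CPM of 5 of the 6 members (all but Mir181a-2) and of all 6, respectively, by more than 1 SD. With 1 library left out, the share ranged from 0.167% to 0.198%, and the ratios from 6.73 to 7.70 (Mir181a-1 to Mir181b-1), 0.0394 to 0.0883 (Mir181a-2 to Mir181b-2), 0.309 to 0.505 (Mir181c to Mir181d), 0.550 to 1.53 (Mir181a-2 to Mir181a-1, which crosses 1) and 107 to 117 (Mir181b-2 to Mir181b-1). All 6 members stayed detected except at a minimum of 100 counts, which left 5. Genes called numbered 132 to 201 under the 5 alternatives against 191. In these the members tested kept their direction (Mir181b-1 is not tested at a minimum of 100 counts), and the call of Mir181b-2 was lost in 3. A leave-one-out comparison of the libraries has no value with 2 libraries. No paired analysis was possible because there is 1 group. Depth limits Mir181b-1 most, at 22 and 30 counts.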
